A study of Mus musculus with 8 samples.

Results

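The genes described here are 9 transcription factor genes of the renal stroma and of the mesenchyme around the ureter: Foxd1, Meis1, Meis2, Tcf21, Alx1, Snai2, Tbx18, Tshz2 and Tshz3. They were taken by name from 22180 genes measured on 1-colour arrays, each through a probe set assigned to that gene alone, and all 9 were measured. Every gene had 1 such probe set except Tshz2, for which the brighter of its probe sets was used. RNA came from kidneys of 8 mouse embryos of 1 litter at E14.5 (E, embryonic day), with both kidneys of an embryo pooled on 1 array. The 4 embryos called Grb2_cKO here carry the genotype Grb2 UB-cKO, a knockout of Grb2 confined to the ureteric lineage, and the other 4 are wild-type controls. The sources used here do not give the driver of the recombinase, or say whether the controls carried it or a floxed allele. The deletion is in the epithelium, whereas the genes described here are known mainly from the mesenchyme around it.

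The stroma of the embryonic kidney is the loose mesenchyme that surrounds the nephron progenitors and the branching ureteric bud. Cells that express the forkhead factor FOXD1 lie in the outer cortex and give rise to the interstitial fibroblasts, pericytes and mesangial cells of the kidney. The mesenchyme around the ureter and its stalk is marked by the T-box factor TBX18 and forms the smooth muscle of the ureter, a step in which TSHZ3 acts upstream of the coactivator myocardin. Stroma also signals to its neighbours: the stromal cadherin FAT4 acts on nephron progenitors, and loss of FOXD1 or TCF21 from the stroma is known to disturb nephron formation and branching of the bud.

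The stretches before the start sites of the 2 genes with the largest changes are shown first, since Foxd1 and Tbx18 were the only ones of the set in which a searched motif was found. Sequences were those of RefSeq on GRCm38.p6, which gave a start site for 7 of the 9 genes (Alx1 and Snai2 were not matched). Each run is the 250 bases before the start, 5′ to 3′ on the strand of the gene, with the motif in capitals. Foxd1 lies at chr13:98353995-98354244 on the plus strand and Tbx18 at chr9:87731261-87731510 on the minus strand.
Foxd1: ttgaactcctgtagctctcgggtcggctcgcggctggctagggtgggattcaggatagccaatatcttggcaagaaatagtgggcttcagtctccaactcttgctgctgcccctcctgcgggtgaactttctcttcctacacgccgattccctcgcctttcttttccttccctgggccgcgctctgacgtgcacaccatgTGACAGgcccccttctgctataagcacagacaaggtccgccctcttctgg
Tbx18: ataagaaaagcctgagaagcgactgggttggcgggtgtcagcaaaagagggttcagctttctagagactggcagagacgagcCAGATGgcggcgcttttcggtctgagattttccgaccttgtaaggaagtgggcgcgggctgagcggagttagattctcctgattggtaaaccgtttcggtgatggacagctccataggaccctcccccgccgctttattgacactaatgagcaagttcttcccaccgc
In the Foxd1 window the capitals mark TGACAG, the core bound by MEIS factors, at bases -50 to -45 from the start. In the Tbx18 window they mark CAGATG, the other strand of CATCTG, an E-box of the kind bound by TCF21, at bases -168 to -163. Motifs were searched on both strands as the factors' usual cores: TGACAG for MEIS, TGTTTAC for forkhead, AGGTGT for T-box, CAGGTG for SNAI factors, and CAGCTG or CATCTG for TCF21. Among 32851 windows of the same length, 15.9% held the MEIS core, 3.17% the forkhead core, 11.8% the T-box core, 17.2% the SNAI core and 25.5% a TCF21 core. In the 7 windows of the set the MEIS and TCF21 cores were each found in 1 window and the others in none. A match is a run of letters, not a site shown to be bound.

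Values are log2 probe-set values, so a difference of 1 is a 2-fold change. Differences are Grb2_cKO minus control from a linear model in limma fitted over all 22180 genes, with a standard error (SE), and p-values were adjusted by Benjamini-Hochberg over all of these genes. In this model 28.1% of all genes passed the threshold of 0.05, 13.7% higher and 14.3% lower in Grb2_cKO. Centring the arrays on their medians changed that split, from 48.9% of the called genes being higher to 36.9%. Grb2 was lower, at 8.20 ± 0.12 in Grb2_cKO against 8.65 ± 0.03 in controls (SD, n = 4 each, limma adjusted p = 0.0017). Whether its probe set reads the deleted part of the gene is not known here, and the cause of its fall was not tested. Sex was unevenly spread over the genotypes. Averaged over the Y-linked genes Eif2s3y, Uty and Kdm5d, control replicates 1, 2 and 4 stood at 4.09 to 4.24, whereas control replicate 3 (9.94) and every Grb2_cKO embryo (9.94 to 10.10) stood high. Sex therefore cannot be told apart from genotype except through control replicate 3, and changes of the 9 genes and counts of most lists are also given from a fit in which that Y-linked mean is a covariate. In that fit Grb2 stood at -0.40 and did not pass (limma adjusted p = 0.100). In bulk RNA, more cells of a type and more RNA per cell cannot be told apart. Each array took 200 ng of total RNA, so values are relative to all RNA of the sample. A rise therefore need not be an absolute gain.

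Foxd1, Tbx18 and Tshz3 rose in Grb2_cKO kidneys by 2.09-fold, 2.18-fold and 1.75-fold, and Meis1 and Snai2 rose by 1.31-fold and 1.17-fold. Meis2, Tcf21, Tshz2 and Alx1 did not pass the test. Thus 5 of 9 genes rose and none fell in limma, against a background of 28.1% called either way. The median log2 fold change of the 9 was 0.23 against 0.01 for all genes. At an unadjusted limma p under 0.05, 7 of the 9 were higher and 0 lower. Of all 22180 genes, 4254 were higher and 4175 lower at that level. The groups did not overlap for 6 of the 9 genes, all higher in Grb2_cKO, against 31.2% of all genes either way (15.2% higher and 16.0% lower). The genes were chosen with earlier results of these data known, so these shares are a description.

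**Figure D1:**
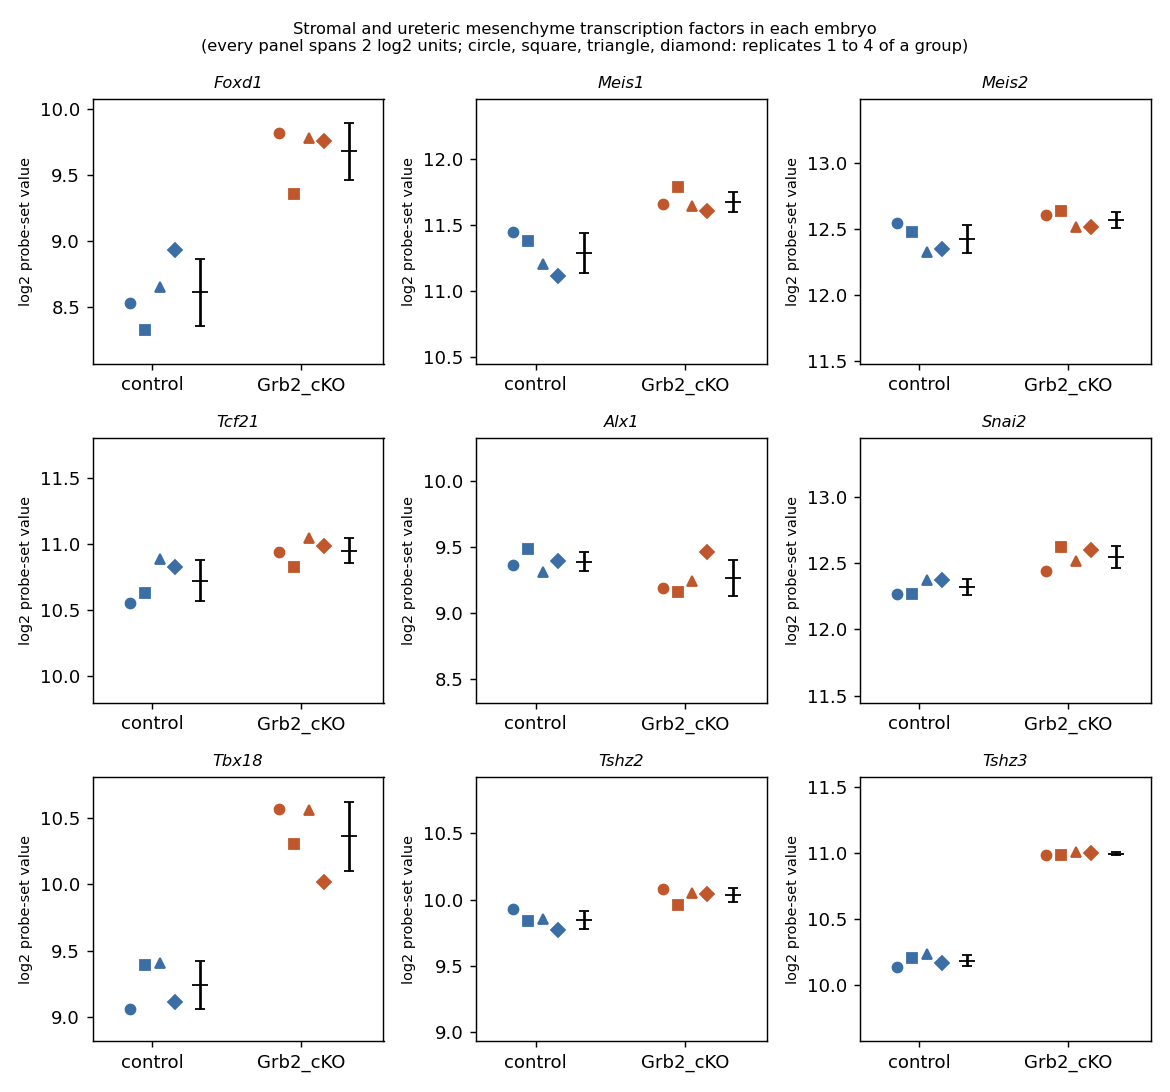
The log2 probe-set value (vertical axis) of each gene is plotted for the 4 control (blue) and 4 Grb2_cKO (orange) embryos, with the mean ± SD in black; every panel spans the same number of log2 units. Foxd1, Tbx18 and Tshz3 show wide gaps between the groups, with Tshz3 at 10.14 to 10.23 in controls and 10.98 to 11.01 in Grb2_cKO, while Alx1, Meis2 and Tcf21 overlap.

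Foxd1, the factor that defines the cortical stromal progenitors, read 8.53, 8.33, 8.65 and 8.93 in control replicates 1 to 4 and 9.82, 9.36, 9.78 and 9.76 in Grb2_cKO replicates 1 to 4. Every Grb2_cKO embryo was above every control, and Grb2_cKO replicate 2 was the lowest of its group. Its log2 fold change came to 1.07, with a 95% interval from 0.75 to 1.38 (SE 0.14, limma adjusted p = 0.00055). An exact two-sided permutation test, with 70 ways to divide the 8 embryos evenly, gave p = 0.0286, the smallest that this design allows. Foxd1 was among the 1.22% of all genes that passed and rose at least 2-fold.

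Meis1, a homeobox gene of the TALE class whose product partners HOX and PBX proteins and is widespread in renal stroma, read 11.45, 11.38, 11.20 and 11.12 in controls and 11.66, 11.78, 11.64 and 11.60 in Grb2_cKO. The groups did not overlap, and the lowest Grb2_cKO embryo stood 0.16 above the highest control. The log2 fold change was 0.39 (SE 0.09, limma adjusted p = 0.0086). Its close relative Meis2 read 12.54, 12.48, 12.33 and 12.35 in controls and 12.60, 12.64, 12.52 and 12.52 in Grb2_cKO. Here the groups overlapped, and the log2 fold change of 0.14 (SE 0.07) did not pass (limma adjusted p = 0.186).

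Tcf21, a basic helix-loop-helix factor of stroma that is also made by podocytes, read 10.55, 10.63, 10.89 and 10.83 in controls and 10.94, 10.83, 11.05 and 10.98 in Grb2_cKO. Control replicate 3 lay above the lowest Grb2_cKO embryo and control replicate 4 level with it, and the log2 fold change of 0.23 (SE 0.09) did not pass (limma adjusted p = 0.095). Its size was close to that of Snai2, which did pass, and the spread among its controls was larger (SD 0.16 against 0.06). Alx1, a paired-class homeobox gene known best from craniofacial mesenchyme, was the only gene of the set with a lower mean in Grb2_cKO. It read 9.36, 9.48, 9.31 and 9.40 in controls and 9.19, 9.16, 9.25 and 9.47 in Grb2_cKO, with a log2 fold change of -0.12 (SE 0.08, limma adjusted p = 0.325). In 3 Grb2_cKO embryos Alx1 was below all controls, and in Grb2_cKO replicate 4 it was above all but 1 of them.

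Snai2, a zinc finger repressor best known for silencing E-cadherin in migrating mesenchyme, read 12.27, 12.27, 12.37 and 12.37 in controls and 12.44, 12.63, 12.51 and 12.60 in Grb2_cKO. The groups were apart by 0.07, a gap about the size of the SD within a group. The log2 fold change was 0.22 (SE 0.07, limma adjusted p = 0.0362). Snai2 missed the threshold when any of 6 of the 8 embryos was left out: control replicate 1 (adjusted p = 0.083), 2 (0.102) or 3 (0.055), or Grb2_cKO replicate 2 (0.084), 3 (0.067) or 4 (0.080). It also missed it after centring on array medians (0.16, adjusted p = 0.138).

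Tbx18, the factor that defines the ureteric mesenchyme, read 9.06, 9.39, 9.40 and 9.11 in controls and 10.57, 10.31, 10.56 and 10.02 in Grb2_cKO. The lowest Grb2_cKO embryo, replicate 4, was still 0.61 above the highest control. Its log2 fold change came to 1.12, with a 95% interval from 0.82 to 1.43 (SE 0.14, limma adjusted p = 0.00036; exact permutation p = 0.0286).

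Tshz3, a zinc finger homeobox gene needed for smooth muscle of the ureter, had the tightest values of the set, at 10.14, 10.21, 10.23 and 10.17 in controls and between 10.98 and 11.01 in the 4 Grb2_cKO embryos. Its SD was 0.04 in controls and 0.01 in Grb2_cKO. Its log2 fold change came to 0.81, with a 95% interval from 0.68 to 0.94 (SE 0.06, limma adjusted p = 3.85e-05). Its relative Tshz2 read 9.93, 9.84, 9.85 and 9.77 in controls and 10.08, 9.96, 10.05 and 10.04 in Grb2_cKO. These groups did not overlap, but the gap was 0.03 and the log2 fold change of 0.18 (SE 0.07) missed the threshold (limma adjusted p = 0.0607). The other Tshz2 probe set, at 7.53 ± 0.11 in controls and 7.55 ± 0.13 in Grb2_cKO (SD, n = 4 each), gave 0.02. What part of the transcript either probe set reads is not known here.

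Relatives within the set were then compared inside each array, where a change of the difference shows that the genes changed unequally. Meis1 minus Meis2 ran from -1.23 to -1.10 in controls and from -0.94 to -0.85 in Grb2_cKO, so the difference moved by 0.24 (exact two-sided permutation p = 0.0286, 0.0429 adjusted over 3 pairs). Tshz3 minus Tshz2 ran from 0.21 to 0.40 in controls and from 0.91 to 1.03 in Grb2_cKO, a move of 0.62 (exact permutation p = 0.0286, adjusted 0.0429). In both pairs all 4 Grb2_cKO embryos lay above all 4 controls, and Meis1 and Tshz3 rose more than their relatives. A permutation p of 0.0286 is the smallest this design allows, and the genes were chosen with earlier results of these data known. Foxd1 minus Tbx18 moved by -0.06, against SDs of 0.37 in controls and 0.30 in Grb2_cKO (exact permutation p = 0.857, adjusted 0.857). A different rise of the cortical and the ureteric factor was thus not detected, with a wide spread among embryos of either genotype.

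**Figure D2:**
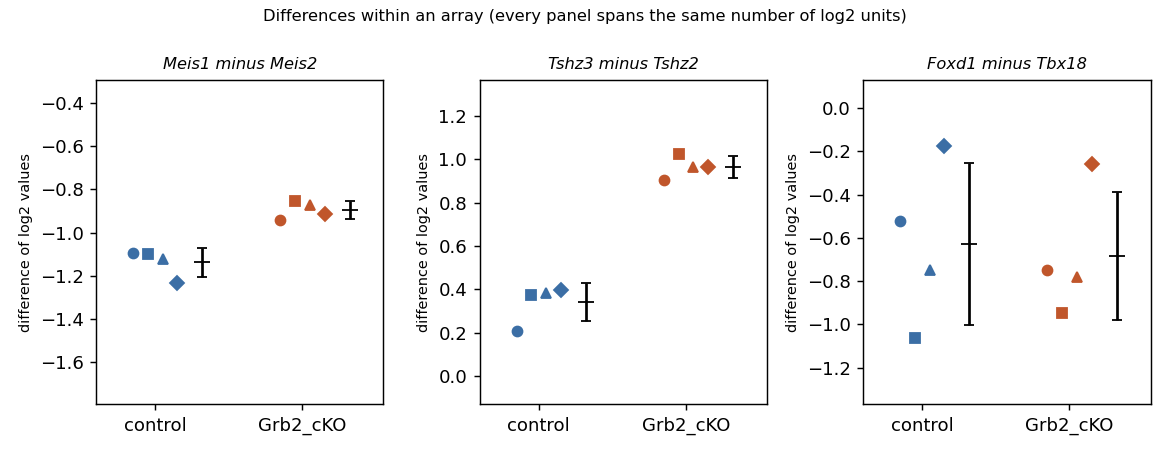
The difference of log2 values between the named genes within an array (vertical axis) is plotted for each control (blue) and Grb2_cKO (orange) embryo, with the mean ± SD in black. The groups are apart for Meis1 minus Meis2 and for Tshz3 minus Tshz2, and overlap widely for Foxd1 minus Tbx18.

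In the fit that takes the Y-linked mean as a covariate, where 5.62% of all genes passed either way and 2.85% higher, 3 of the 9 genes passed: Tshz3 at 0.76 (limma adjusted p = 0.0085), Tbx18 at 0.96 (0.0406) and Foxd1 at 1.03 (0.0425). Meis1 stood at 0.47 (adjusted p = 0.095) and Snai2 at 0.17 (0.478), neither past the threshold. This covariate leaves the estimate resting on control replicate 3. With that embryo as the only control, its spread assumed to be that of the Grb2_cKO group, 1.28% of all genes passed either way (0.744% higher) and only Tshz3 of the 9 did, at 0.76 (adjusted p = 0.0365). Foxd1 stood at 1.02 (adjusted p = 0.0646) and Tbx18 at 0.96 (0.0855) in that fit. In control replicate 3, Foxd1 was 0.06, Tshz3 0.06, Tbx18 0.22 and Tcf21 0.22 above the mean of the other controls. With the covariate Tcf21 stood at 0.06 (limma adjusted p = 0.859). Tcf21 read 10.89 in control replicate 3 and 10.83 in control replicate 4, where the Y-linked genes were low. Foxd1 ran from 8.33 to 8.93 over the controls. These offsets come from 1 embryo, and an effect of sex on these genes was not tested.

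**Figure D3:**
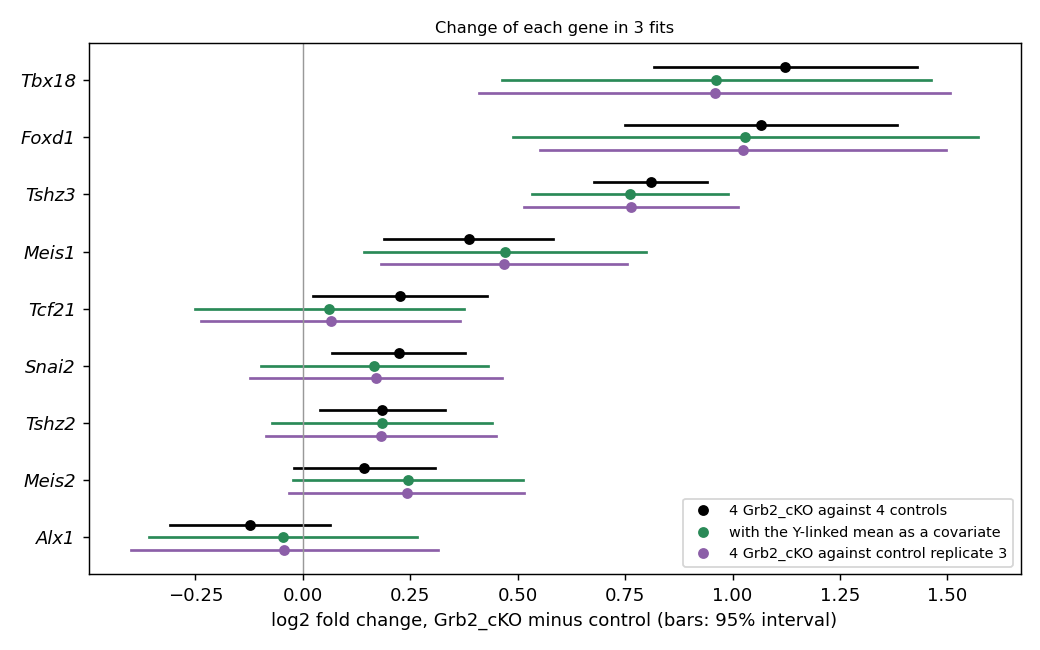
The log2 fold change of each gene (horizontal axis, Grb2_cKO minus control) is plotted with its 95% interval for all 8 embryos (black), with the Y-linked covariate (green) and with control replicate 3 as the only control (purple). Tbx18, Foxd1, Tshz3 and Meis1 stay above 0 with their whole interval in all 3 fits, although the adjusted p does not pass in each, and the intervals of the other 5 genes reach below 0 in 1 or more of the fits.

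Relatives of the 9 genes outside the set were examined next. Of 14 such genes measured, 1 rose, 2 fell and 11 did not pass, with a median log2 fold change of 0.02, where 28.1% of all genes were called. Meis3, the remaining MEIS gene, rose from 7.47 ± 0.20 to 8.20 ± 0.10 (SD, n = 4 each; log2 fold change 0.73, SE 0.10, limma adjusted p = 0.00076). Foxd2, a forkhead relative of Foxd1, fell by 0.37 (SE 0.12, limma adjusted p = 0.0407), and Tcf15, a helix-loop-helix gene, fell by 0.40 (SE 0.13, adjusted p = 0.0386). These 3 genes missed the threshold with the Y-linked covariate, Meis3 at 0.66 (adjusted p = 0.0615). In that fit 1213 of the 6227 genes called over all genes passed. Snai1, the relative of Snai2, stood at 0.44 and narrowly missed the threshold (limma adjusted p = 0.0518). Tbx15 stood at 0.38 (adjusted p = 0.0638), and Tshz1, the remaining TSHZ gene, stood at 0.01 (adjusted p = 0.921). The log2 fold changes of the other 8 were Foxd3 0.12, Foxd4 0.06, Pbx3 0.02, Tcf24 -0.21, Msc -0.02, Alx4 -0.01, Tbx22 0.08 and Snai3 0.01.

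Other transcription factors of mesenchyme were described in the same way. Of 29 measured (Zeb2 was not analysed here), 13 rose, 1 fell and 15 were not called (median 0.25), with 16 higher and 3 lower at an unadjusted p under 0.05. Over all genes, 13.7% rose and 14.3% fell in limma, and 4254 of 22180 were higher and 4175 lower at that unadjusted level. Tbx2 and Tbx3, T-box genes like Tbx18, had lower means in Grb2_cKO, at -0.23 and -0.27 (limma adjusted p = 0.096 and 0.079), and were picked out once the values were known. Ebf3 and Ebf1, early B-cell factor family genes that are also active in mesenchyme, rose by 1.64 (SE 0.12) and 0.90 (SE 0.08), Prrx1, a paired-related homeobox gene of mesenchyme, by 1.27 (SE 0.09), and Gata6, a zinc finger gene of smooth muscle, by 0.74 (SE 0.08), with limma adjusted p-values from 3.72e-05 to 0.000173. The 1 gene that fell was Lef1, a WNT effector, by 0.37 (SE 0.10), a gene singled out once the values were known. Adding the Y-linked covariate left 6 of these 14 genes past the threshold, and 1213 of the 6227 called over all genes.

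Genes for products of stromal cells, such as matrix, receptors and secreted factors, were also largely higher. All 28 were measured, and 18 rose, none fell in limma (0 also at an unadjusted p under 0.05) and 10 were not called. The median was 0.60. Over all genes, 13.7% rose and 14.3% fell, and 4175 of 22180 were lower at an unadjusted p under 0.05. Under the covariate the median of the list was 0.43, and 8 of the 18 passed, as did 1213 of the 6227 genes called over all genes. Dlk1, a membrane protein related to Notch ligands, rose by 1.48 (SE 0.12), Igf1, a growth factor, by 1.18 (SE 0.13), Cxcl12, a chemokine of stroma, by 0.85 (SE 0.08), and Fat4, the cadherin through which stroma acts on nephron progenitors, by 0.69 (SE 0.07). Pdgfra, a receptor of mesenchymal cells, rose from 11.60 ± 0.08 to 12.28 ± 0.12 (SD, n = 4 each). Among the 10 that did not pass was Aldh1a2, the stromal enzyme of retinoic acid synthesis, at 0.10 (limma adjusted p = 0.398). Also among them were Fibin (-0.18), Clca3a1 (-0.12), Vcan (-0.10), Ptn (-0.07) and Tnc (-0.03), with lower means in Grb2_cKO. These were named with their values known.

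In ureteric mesenchyme and smooth muscle, 18 of 20 listed genes were measured. In limma 8 rose, none fell (1 lower at an unadjusted p under 0.05) and 10 were not called (median 0.29). Among all genes 13.7% rose and 14.3% fell, and 4175 of 22180 were lower at an unadjusted p under 0.05. Under the covariate 0 of the 8 passed in limma, and 5 of them had an unadjusted p under 0.05. Of the 6227 genes called over all genes, 1213 passed in that fit and 4080 had an unadjusted p under 0.05. Myocd, the coactivator that TSHZ3 is known to act through, read 8.71, 8.73, 8.99 and 8.28 in controls and 9.77, 9.25, 9.97 and 9.47 in Grb2_cKO. Its groups did not overlap (log2 fold change 0.94, SE 0.18, limma adjusted p = 0.0036), but it stood at 0.63 with the covariate (adjusted p = 0.224). Sfrp2, a secreted WNT modulator, rose by 0.44 (SE 0.08), Smtn, which encodes smoothelin, by 0.50 (SE 0.09), and Car3, a carbonic anhydrase, by 0.82 (SE 0.17). Among the genes of this list that did not pass were the contractile genes Acta2 (0.31, limma adjusted p = 0.080), Tagln (0.48, 0.104), Cnn1 (0.22, 0.534), Actg2 (0.25, 0.584) and Myh11 (0.03, 0.938). Hhip, a hedgehog-binding protein gene, stood at -0.40 (adjusted p = 0.074), the only one of the list lower at an unadjusted p under 0.05. These 6 genes were added with their values known.

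**Figure D4:**
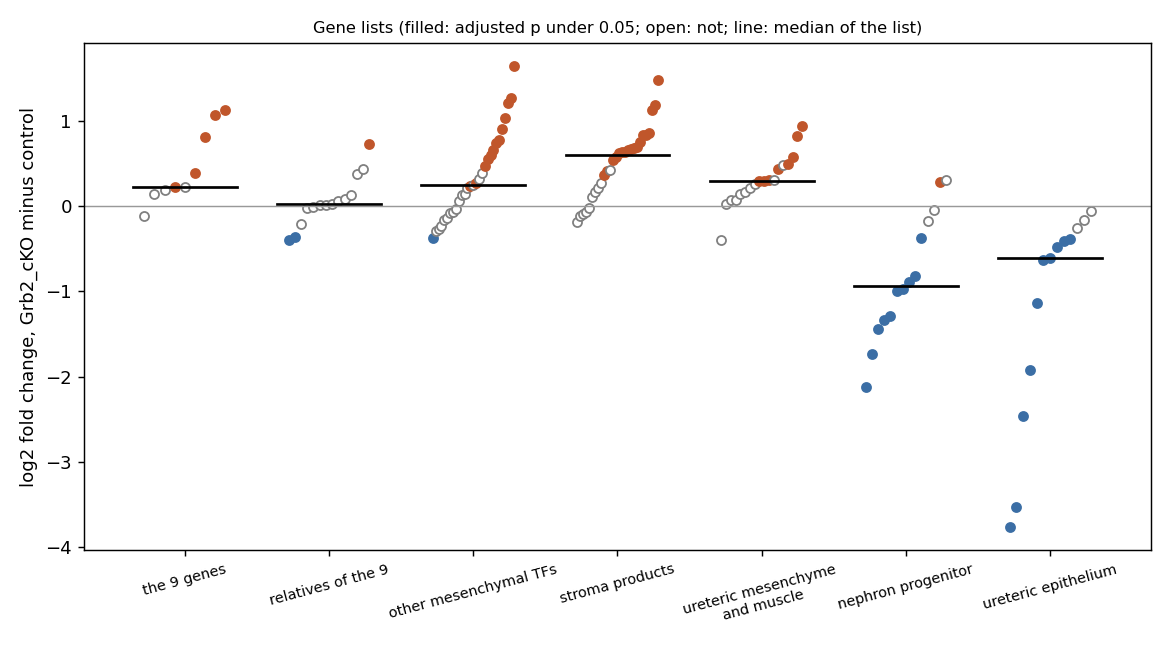
Each point is the log2 fold change (vertical axis, Grb2_cKO minus control) of 1 gene, by list, filled where the limma adjusted p passed the threshold, with a line at the median of the list. The 9 genes have a median of 0.23, other mesenchymal transcription factors (TFs) 0.25 and stroma products 0.60, while nephron progenitor and ureteric epithelium lists lie at -0.93 and -0.62.

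Markers of other cells of the kidney moved beside these genes, and their part in the changes of the 9 was not tested. Of all genes, 14.3% were called lower and 13.7% higher. Nephron progenitor genes had 10 of 14 lower and 1 higher (median -0.93), and their mean level ran from 9.92 to 10.09 in controls against 8.92 to 9.35 in Grb2_cKO. Six2, which maintains these progenitors, fell less in some embryos than in others: Grb2_cKO replicates 1 to 4 read 10.22, 10.15, 8.37 and 8.44, against 11.32 to 11.59 in controls. Six2 stood at -2.02 under the covariate and no longer passed (limma adjusted p = 0.124). Ureteric epithelium genes had 10 of 13 lower, with a mean level of 9.38 to 9.49 in controls and 8.14 to 8.46 in Grb2_cKO, and 10 of 11 proliferation genes were lower.

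Lists for other cells varied in direction. Beside them, 13.7% of all genes were called higher and 14.3% lower. Macrophage genes had 9 of 12 higher, at a mean level of 7.21 to 7.39 in controls and 7.98 to 8.39 in Grb2_cKO, endothelial genes 9 of 12 higher (9.43 to 9.53 against 9.76 to 10.02), and erythroid genes 5 of 6 higher (6.52 to 7.17 against 7.51 to 7.97). Podocyte genes, which bear on Tcf21, had 5 of 9 higher (8.25 to 8.39 against 8.50 to 9.10). Skeletal muscle genes had 5 of 10 higher (6.21 to 6.38 against 6.64 to 6.76), and mesothelial genes had 3 of 8 higher (6.38 to 6.61 against 6.79 to 7.06). Neural crest and neuron genes had 3 of 11 higher and 2 lower (6.58 to 6.75 against 6.80 to 7.08), with Stmn2, a neuronal stathmin gene, up by 2.48 (SE 0.16) and Sox10, which defines neural crest and glia, at -0.02. Genes of adrenal cortex and gonad, tissues next to the kidney, had 1 of 12 higher and 2 lower (5.97 to 6.02 against 5.87 to 6.17), and Nr5a1, which defines them, stood at 0.02. Under the covariate, limma called 4 of the 9 macrophage genes, 1 of the 5 erythroid genes and 1 of the 5 skeletal muscle genes, but 0 of the 9 endothelial genes (6 at an unadjusted p under 0.05), 0 of the 5 podocyte genes (4 unadjusted) and 0 of the 3 mesothelial genes (2 unadjusted). It called 2 of the 5 neural crest and neuron genes and 0 of the 3 adrenal and gonad genes (3 unadjusted). In the same fit 6 of 11 called nephron progenitor genes, 7 of 10 ureteric epithelium genes and 8 of 10 proliferation genes passed. Of the 6227 genes called over all genes, 1213 passed in that fit, and 4080 had an unadjusted p under 0.05 there. No detection calls were used here, so whether a marker at such a level is expressed at all is not known.

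By Pearson's r over the 8 arrays, the genes most like each of the 9 were found. Symbols of the usual form for predicted, microRNA, snoRNA, olfactory receptor and vomeronasal receptor genes were left out. Such genes under other symbols were not removed. AF357426, whose class was not checked, stayed in at rank 2 for Meis1 (0.986). The ranking is a description, in which the difference between genotypes takes most of the likeness for the genes that rose. Tshz3 was most like Adcy2, an adenylyl cyclase gene (r = 0.999), and Grin3a, a glutamate receptor subunit gene (0.998). Tbx18 was most like Npy1r, a neuropeptide Y receptor gene (0.994), and Tbx5, another T-box gene (0.991). Foxd1 was most like Gng7, a G protein subunit gene (0.991), and Abcg4, a transporter gene (0.989). Adcy2 rose by 1.01, Grin3a by 0.93, Npy1r by 1.40, Tbx5 by 0.28, Gng7 by 0.50 and Abcg4 by 0.75 on the log2 scale. Under the covariate Npy1r (1.24, limma adjusted p = 0.057), Gng7 (0.48, 0.069) and Tbx5 (0.23, 0.253) no longer passed. Tbx5 was dim, at 5.16 to 5.56 over the 8 arrays, where array medians ran from 6.61 to 6.72. For the others, the nearest gene was Ptprd for Meis1 (0.992), Sh3glb1 for Meis2 (0.974), Pigq for Tcf21 (0.987), Ep300 for Snai2 (0.989) and Adgrb3 for Tshz2 (0.989). Alx1 had the lowest nearest value, 0.933 with Ppp1r16b.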

How the data were processed

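Total RNA of each embryo (200 ng, amplified with an Ambion WT kit, per the labels' protocols) was measured on 1 array. The deposited values are log2 probe-set values made by the authors with the Transcriptome Analysis Console, per the submitters' processing notes. The sources used here do not give background correction or normalization. That the scale is log2 was read from the values (1.25 to 14.08, array medians 6.61 to 6.72). They were not transformed again. Of 41345 probe sets 23521 had 1 gene symbol, 1814 several and 16010 none in the platform annotation. Of the probe sets with 1 symbol, 23328 were matched through the Entrez identifier to RefSeq (GRCm38.p6) and took its symbol. The probe set with the highest mean stood for each of 22180 genes. The number of arrays limits the precision.

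Groups were compared with limma 3.58.1 (R 4.3.3) on all 8 arrays without covariates, adjusted by Benjamini-Hochberg over all genes. The same fit was run on simulated arrays, only to check that it recovered changes put into them. Those arrays held far fewer changed genes and no sex difference, so they do not test the error rate in these data. Replicate numbers follow the order of the samples and pair nothing. The 9 genes and the lists were chosen with earlier results of these data known. Named were the 9 genes, Grb2, their measured relatives, up to 4 genes of smallest p per list, Six2, Gdnf, Ret, Myocd, Pdgfra, sex-linked genes and the nearest genes by correlation; of these, not all are printed. Sox10, Nr5a1, Aldh1a2, Tbx2, Tbx3, Hhip, the contractile genes and the stroma products with lower means were added after their values were seen. Alternatives were a threshold of 0.01, all probe sets, averaged probe sets per gene, weighted arrays, quantile-normalized or median-centred arrays, omission of the dimmest 25% of genes, a spread fitted with trend and robust options, a Y-linked covariate, control replicate 3 as the single control, and omission of each embryo.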

Additional observations from a re-analysis of the deposited data

Results flagged for a closer look

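In Grb2_cKO replicate 2, Foxd1 read 9.36, apart from the other 3 Grb2_cKO embryos at 9.76 to 9.82, by a gap that was 0.86 of the range of the group. In control replicate 1, Tshz3 minus Tshz2 was 0.21, apart from the other controls at 0.37 to 0.40, with a gap of 0.88 of the range. Of 64 groups of 4 values tested with Dixon's criterion at the 95% level, these 2 were beyond it, and chance flags about 1 in 20.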

How the results depend on the processing

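The directions of the 9 genes held in every alternative run, and Tshz3 passed in all of them. Leaving out each embryo gave 0.97 to 1.17 for Foxd1, 1.05 to 1.24 for Tbx18, 0.79 to 0.82 for Tshz3 and 0.33 to 0.44 for Meis1, all past the threshold, and 0.20 to 0.26 for Snai2, past it in 2 of 8 cases. Snai2 also missed it after centring on array medians (0.16), over all probe sets and at an adjusted p of 0.01 (0.22 in both), with the Y-linked covariate (0.17) and with control replicate 3 alone (0.17). Meis1 missed it with the covariate and with that control alone (0.47 in both), and Foxd1 (1.02) and Tbx18 (0.96) with that control alone. Tshz2 passed after quantile normalization (0.21), without the dimmest genes and with the trended spread (0.18 in both) and with array weights (0.19), and Tcf21 with the trended spread (0.23). Averaging both Tshz2 probe sets gave 0.10.

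Of the 9 genes, 3 passed with the covariate and 1 with control replicate 3 alone, when 1246 and 285 of all genes did, and 3809 of all genes passed at 0.01. For relatives, 3 of 14 were called in the main fit, when 6227 of all genes were. After quantile normalization the count was 1 (6228 of all genes). Without the dimmest 25% of genes it was 5, when 6703 of the genes kept were called. That filter also changed which relatives were tested (median 0.012 against 0.018), so 5 cannot be set against 3 of 14. With the covariate in limma the count was 0 (3 at an unadjusted p under 0.05), when 1246 of all genes passed. Leaving out each embryo gave 1 to 3 (4894 to 5955 of all genes), at 1 without Grb2_cKO replicate 3 or 4 or control replicate 3. With the covariate 6 other mesenchymal factors and 0 ureteric mesenchyme genes passed, and the median of stroma products was 0.43. The median of other mesenchymal factors was 0.18 after centring.

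Against control replicate 3 alone, Meis1 minus Meis2 moved by 0.23 and Tshz3 minus Tshz2 by 0.58, where 4 embryos against 1 cannot give a permutation p below 0.2. Foxd1 minus Tbx18 turned to 0.065 there, and ranged from -0.20 to 0.093 when each embryo was left out, above 0 without control replicate 4 (0.093) or Grb2_cKO replicate 2 (0.031). No scaling moved the median of all genes by over 0.1. The cause of these changes was not tested.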
